A study of Mus musculus with 9 samples.

Results

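Macrophages are among the most common immune cells of adipose tissue, and 10 genes that mark them and their monocyte precursors were described here in mouse brown adipose tissue. The genes were chosen by name, with earlier results of these data known, and matched by exact symbol: the growth factor receptor Csf1r, the lysosomal genes Cd68 and Lyz2, the integrin chains Itgam and Itgax, the lipopolysaccharide co-receptor Cd14, the scavenger and lectin receptors Mrc1 and Cd163, the lipid receptor Trem2 and the chemokine Ccl2. All 10 were found among the 24356 symbols of each expression table, and all 10 had a value above 0 in every library, so that none was lost from the 14675 genes tested. The study profiled RNA from brown fat of GHRH-KO mice, in which the gene for growth hormone releasing hormone is disrupted, beside littermate controls (WT). There were 9 libraries, each from 1 animal: 2 KO females, 2 KO males, 3 WT females and 2 WT males. Mice of both genotypes shared a mixed C57BL6 and 129SV background, standard housing and the same chow, and their ages were not given in the sources used here. The tissue was not sorted, so the values are those of whole brown fat.

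Macrophages depend on signals through the Csf1 receptor, take up dead cells, debris and lipoprotein particles, and kill microbes with lysosomal enzymes. Resident macrophages of many tissues carry the mannose receptor (Mrc1) and the haemoglobin scavenger receptor (Cd163), whereas macrophages that gather around lipid-laden or dying adipocytes carry Trem2 and often the integrin chain CD11c, encoded by Itgax. Monocytes enter tissue from blood along a gradient of the chemokine encoded by Ccl2, which they sense through Ccr2.

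Levels are given in FPKM, in which fragments are divided by the length of the transcript and by the size of the library, and which can be set side by side between genes. From the steps between low values in the tables, a level of 1 FPKM over 1 kilobase of transcript stood for about 21.1 to 25.9 fragments, depending on the library, and no pair of libraries was identical. The library of KO male 1 stood apart. Its Spearman correlation with any other library reached at most 0.934, against 0.958 to 0.991 between the other 8, and it held far more RNA of lymphocytes: the sum of 13 T and B lymphocyte genes was 304 FPKM, against 2.74 to 2.90 in the other KO libraries and 2.32 to 5.88 in the WT libraries. The comparisons of the 10 genes by limma are therefore given with and without it. The targeted gene ran against the labels: Ghrh was 0.846, 0.233, 0.799 and 0.470 FPKM in KO female 1, KO female 2, KO male 1 and KO male 2 and was listed at 0 in all 5 WT libraries. A value per gene does not show which exons the fragments came from, and KO and WT below mean the libraries labelled so. The receptor of growth hormone, Ghr, was 42.2 to 51.6 FPKM in the KO and 62.8 to 155 FPKM in the WT libraries, with a log2 difference, KO minus WT, of -0.98 (limma adjusted p = 0.0660) with 9 libraries and -0.91 (adjusted p = 0.0969) without KO male 1. Igf1, a gene that growth hormone induces, was 2.46 FPKM in KO male 1, 0.713 to 1.28 FPKM in the other KO libraries and 2.13 to 8.80 FPKM in the WT libraries, with differences of -1.84 (adjusted p = 0.0661) and -2.07 (adjusted p = 0.0631). Both genes were thus measured lower in the libraries labelled KO, and neither passed the threshold of 0.05.

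The upstream sequences of 4 of the genes are shown because Spi1, which encodes the myeloid transcription factor PU.1, was measured in the same libraries and is described with them below. The 250 bases before the start of transcription, from the RefSeq promoter table of build GRCm38.p6, were searched together with the first 50 transcribed bases for the letters of a PU.1 core, GAGGAA, on both strands; these letters and their reverse, TTCCTC, are in capitals. Promoters were matched for 7 of the genes, and 4 of the 7 held the letters, beside 31.3% of all 27025 genes in the table. The stretches lie at chr11:69666171-69666420 on the minus strand (Cd68), and on the plus strand at chr7:128062390-128062639 (Itgam), chr2:14229164-14229413 (Mrc1) and chr17:48346151-48346400 (Trem2).
Cd68: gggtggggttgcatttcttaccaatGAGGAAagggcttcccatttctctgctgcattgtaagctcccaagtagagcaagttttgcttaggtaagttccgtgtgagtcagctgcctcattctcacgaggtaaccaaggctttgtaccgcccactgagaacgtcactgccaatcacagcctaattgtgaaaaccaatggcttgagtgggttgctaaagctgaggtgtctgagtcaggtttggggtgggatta
Itgam: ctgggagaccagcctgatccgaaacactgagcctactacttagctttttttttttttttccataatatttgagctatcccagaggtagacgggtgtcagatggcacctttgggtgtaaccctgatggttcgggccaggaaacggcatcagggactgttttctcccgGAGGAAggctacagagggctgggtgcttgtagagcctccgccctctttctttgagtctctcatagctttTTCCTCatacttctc
Mrc1: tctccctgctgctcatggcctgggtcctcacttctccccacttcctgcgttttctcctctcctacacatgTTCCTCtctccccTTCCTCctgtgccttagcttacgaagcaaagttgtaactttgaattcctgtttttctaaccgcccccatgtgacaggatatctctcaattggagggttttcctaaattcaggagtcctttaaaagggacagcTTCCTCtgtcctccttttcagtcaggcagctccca
Trem2: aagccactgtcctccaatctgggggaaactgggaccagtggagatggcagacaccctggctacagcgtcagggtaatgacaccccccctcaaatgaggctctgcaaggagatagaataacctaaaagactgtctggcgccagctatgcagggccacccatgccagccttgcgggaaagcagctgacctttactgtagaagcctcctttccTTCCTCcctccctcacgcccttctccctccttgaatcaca
The letters began 225 bases before the start of Cd68, 84 and 15 bases before that of Itgam, 180, 167 and 35 bases before that of Mrc1 and 40 bases before that of Trem2. Cd68 and Itgam each held the letters once more within the first 50 transcribed bases. No match was found in the windows of Lyz2, Itgax and Cd163. A match of letters is a description of the sequence and does not show binding.

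With all 9 libraries, Cd14 and Cd163 were lower in KO than in WT brown fat, and the other 8 genes did not pass the test. Cd14, at 1.81 ± 0.506 FPKM (SD, n = 4) in the KO and 5.27 ± 1.94 FPKM (n = 5) in the WT libraries, and Cd163, at 1.12 ± 0.225 and 2.06 ± 0.303 FPKM, were also the only members whose KO and WT values did not overlap. In KO male 1, 6 of the 10 genes were at their highest of all 9 libraries. When this library was left out, all 10 genes had a lower fitted mean in the KO libraries, and 6 of 10 no longer overlapped between the genotypes, although Cd14 and Cd163 remained the members called. The difference was fitted with limma as log2 FPKM, KO minus WT, averaged over the sexes, with p adjusted over all 14675 genes. By that test 2 of 10 members were called lower with 9 libraries, beside 3.6% of all genes called in either direction and 2.17% of all genes called lower. Without KO male 1, 2 of 10 were called lower, beside 3.01% of all genes in either direction and 2.25% lower. At an unadjusted p under 0.05 there were 2 of 10 members with 9 libraries, beside 20.2% of all genes, and 6 of 10 without KO male 1, beside 26.4%. The values of KO libraries lay wholly below those of WT for 2 of 10 members with 9 libraries, beside 6.04% of all genes, and for 6 of 10 without KO male 1, beside 13.5%. In unsorted tissue, fewer macrophages and less of a transcript per macrophage cannot be told apart.

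**Figure D1:**
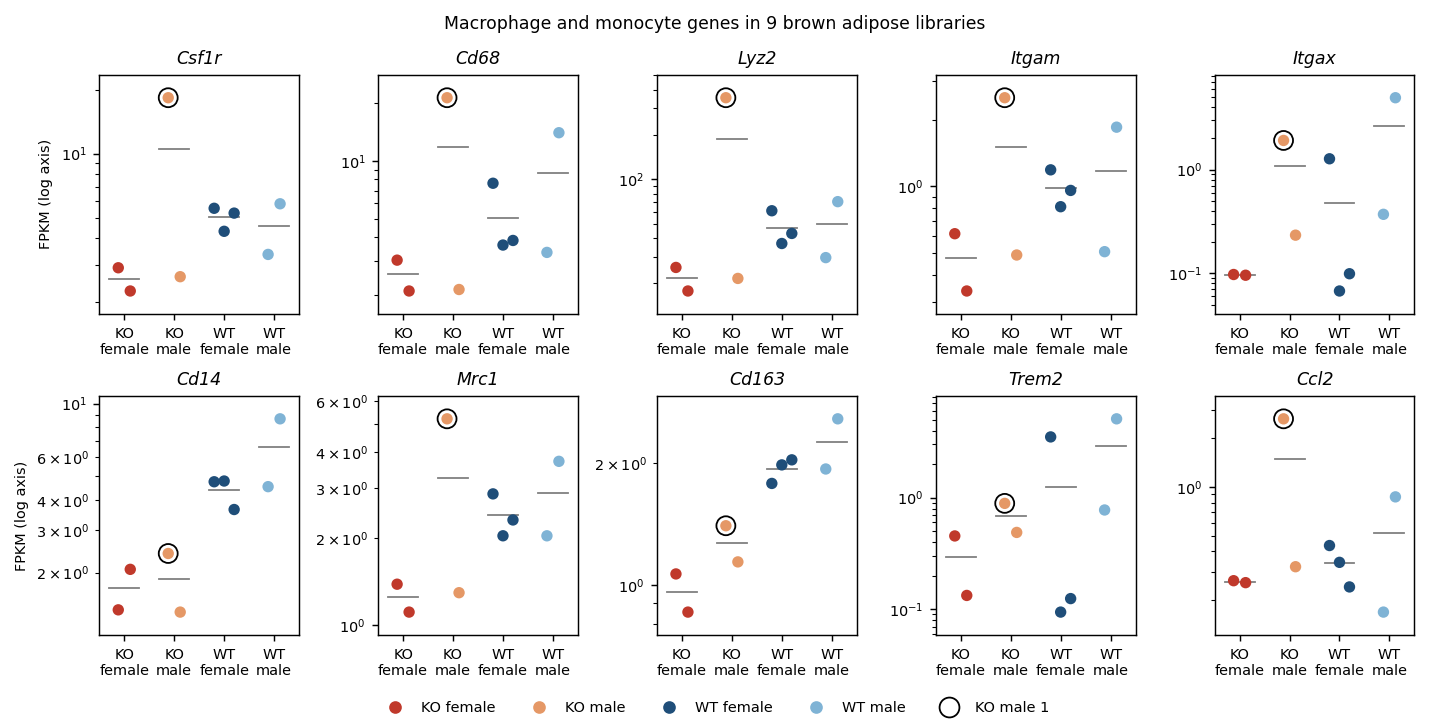
Level of each of the 10 genes (FPKM, log axis with its own range in each panel) in the 9 libraries, by genotype and sex; points are libraries, grey lines are group means, and the open ring marks KO male 1. The ringed point is the highest of all for Csf1r, Cd68, Lyz2, Itgam, Mrc1 and Ccl2, while for Cd14 and Cd163 every KO point lies below every WT point.

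Csf1r encodes the receptor for the growth factors Csf1 and Il34, on which macrophage survival depends. The KO females had 2.90 and 2.25 FPKM, KO male 1 had 18.4 FPKM and KO male 2 had 2.63 FPKM, beside 5.53, 4.31 and 5.25 FPKM in WT females 1 to 3, and 3.35 and 5.81 FPKM in WT males 1 and 2. KO male 1 was above every other library, and the other 3 KO libraries were below all 5 WT libraries. With 9 libraries the difference was -0.16 ± 0.52 (log2, SE; limma adjusted p = 0.919), and without KO male 1 it was -0.86 ± 0.21 (adjusted p = 0.0690). The means without that library were 2.59 ± 0.325 FPKM in KO (SD, n = 3) and 4.85 ± 1.01 FPKM in WT (n = 5). An exact permutation test of log2(FPKM + 0.1), two-sided, gave p = 0.865 with 9 libraries and p = 0.0179 with 8, the smallest that 8 libraries in these groups allow. Of the 50-base stretches of the Csf1r transcript, 14.3% were shared with Hmgxb3, which overlaps it on the opposite strand, and the sources used here do not state whether strand was used.

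Cd68 encodes a heavily glycosylated protein of the macrophage lysosome, and its gene spans positions 69664213 to 69666153 of chromosome 11. It was measured at 3.03 and 2.09 FPKM in the KO females, 21.4 FPKM in KO male 1 and 2.13 FPKM in KO male 2, 7.65, 3.63 and 3.84 FPKM in the WT females, and 3.33 and 14.1 FPKM in WT males 1 and 2. Apart from KO male 1, the KO libraries lay just under the lowest WT library, and WT female 1 and WT male 2 stood above the other 3 WT libraries. The difference was -0.47 ± 0.72 (log2, SE; limma adjusted p = 0.804) with 9 libraries and -1.30 ± 0.50 (adjusted p = 0.160) without KO male 1. Exact permutation p-values were 0.627 and 0.0893.

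Lyz2 encodes the lysozyme of macrophages and neutrophils, an enzyme that cuts bacterial cell walls, and was the most abundant of the 10 genes in each library. The KO females had 25.4 and 17.6 FPKM, KO males 1 and 2 had 354 and 21.4 FPKM, the WT females had 61.3, 36.9 and 43.1 FPKM, and WT males 1 and 2 had 29.6 and 70.6 FPKM. KO male 1 was 10.6-fold above the median of the other 8 libraries, and the remaining KO libraries were below all WT libraries. The limma difference was -0.094 ± 0.75 (log2, SE; adjusted p = 0.971) with 9 libraries and -1.11 ± 0.32 (adjusted p = 0.0890) without KO male 1, when the means were 21.5 ± 3.89 FPKM (SD, n = 3) and 48.3 ± 17.1 FPKM (n = 5). The exact permutation test gave p = 0.976 and p = 0.0357. Lyz2 shares 15.4% of its 50-base stretches with the neighbouring paralog Lyz1, so part of its signal could have been assigned to either gene. Lyz1 itself was 1.83 to 3.40 FPKM in the KO libraries other than KO male 1, where it was 54.0 FPKM, and 1.57 to 5.07 FPKM in the WT libraries.

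Itgam encodes CD11b, the chain that pairs with the Itgb2 product to form complement receptor 3 on monocytes, macrophages and neutrophils. Its values were 0.612 and 0.338 FPKM in the KO females, 2.51 FPKM in KO male 1 and 0.490 FPKM in KO male 2, 1.19, 0.810 and 0.959 FPKM in the WT females, and 0.508 and 1.85 FPKM in WT males 1 and 2. Without KO male 1 the groups overlapped only through KO female 1 and WT male 1. The difference was -0.45 ± 0.57 (log2, SE; limma adjusted p = 0.748) with 9 libraries and -1.04 ± 0.46 (adjusted p = 0.199) without KO male 1. Exact permutation p-values were 0.532 and 0.0714. The gene model Gm49368 overlaps Itgam on the same strand and shares 66.3% of its 50-base stretches, so the level of Itgam is uncertain.

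Itgax encodes CD11c, a partner of the same beta chain on dendritic cells and on some adipose macrophages. It was at 0.0976 and 0.0960 FPKM in the KO females, 1.91 FPKM in KO male 1 and 0.234 FPKM in KO male 2, 1.27, 0.0677 and 0.0993 FPKM in the WT females, and 0.371 and 4.94 FPKM in WT males 1 and 2. The spread lay mostly within the WT group, whose highest library was 73.0-fold above its lowest, and the KO and WT values overlapped with and without KO male 1. The limma difference was -1.05 ± 1.17 (log2, SE; adjusted p = 0.707) with 9 libraries and -1.81 ± 1.21 (adjusted p = 0.376) without KO male 1. The lowest value of Itgax corresponds to about 5.77 estimated fragments, so low levels were measured coarsely.

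Cd14 encodes the co-receptor that hands bacterial lipopolysaccharide to Tlr4, and showed the larger of the differences that passed the test. Its level was 1.40 and 2.06 FPKM in the KO females, 2.40 FPKM in KO male 1 and 1.37 FPKM in KO male 2, 4.75, 4.78 and 3.65 FPKM in the WT females, and 4.53 and 8.65 FPKM in the WT males. All 4 KO libraries, KO male 1 included, were below all 5 WT libraries. The limma difference was -1.57 ± 0.26 (log2, SE; adjusted p = 0.0347) with 9 libraries and -1.77 ± 0.26 (adjusted p = 0.0341) without KO male 1. The exact permutation test gave p = 0.00794 with 9 libraries and 0.0179 with 8, the smallest that the groups allow. The partner receptor Tlr4 was 0.582 to 1.18 FPKM in the KO and 0.837 to 1.36 FPKM in the WT libraries, with a limma difference of -0.55 (adjusted p = 0.244) with 9 libraries. When KO male 1 was left out the values of Tlr4 did not overlap, and the difference was -0.73 ± 0.22 (log2, SE; adjusted p = 0.0989).

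Mrc1 encodes the mannose receptor CD206, a lectin that takes up glycoproteins, and lies at positions 14229392 to 14332057 of chromosome 2. The KO females had 1.39 and 1.11 FPKM, KO males 1 and 2 had 5.20 and 1.30 FPKM, the WT females had 2.86, 2.04 and 2.32 FPKM, and WT males 1 and 2 had 2.04 and 3.70 FPKM. The KO libraries other than KO male 1 fell within a narrow range below all WT libraries, at 1.27 ± 0.141 FPKM (SD, n = 3) against 2.59 ± 0.704 FPKM (n = 5). The limma difference was -0.51 ± 0.40 (log2, SE; adjusted p = 0.557) with 9 libraries and -1.01 ± 0.24 (adjusted p = 0.0634) without KO male 1. Exact permutation p-values were 0.365 and 0.0179.

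Cd163 encodes the receptor that clears haemoglobin bound to haptoglobin, and lies at positions 124304656 to 124330527 of chromosome 6. It was measured at 1.06 and 0.856 FPKM in the KO females, 1.40 FPKM in KO male 1 and 1.14 FPKM in KO male 2, 1.78, 1.98 and 2.04 FPKM in the WT females, and 1.94 and 2.58 FPKM in the WT males. Every KO library was below every WT library. The limma difference was -0.92 ± 0.16 (log2, SE; adjusted p = 0.0347) with 9 libraries and -0.99 ± 0.17 (adjusted p = 0.0399) without KO male 1, and the exact permutation test gave p = 0.00794 with 9 libraries and 0.0179 with 8. Cd163 was also the only member past the unadjusted threshold of 0.01 for genotype in the ordinary linear model of genotype, sex and interaction that the methods of the study describe (log2 difference in females -1.02), beside 3.43% of all genes.

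The calls of Cd14 and Cd163 depended on single libraries and on the model. With KO female 1, KO female 2, WT female 1, 2 or 3, or WT male 2 left out in turn, neither passed, with adjusted p from limma of up to 0.134 for Cd14 and 0.130 for Cd163, while the differences stayed between -1.81 and -1.34 for Cd14 and between -1.02 and -0.82 for Cd163 over all 9 omissions. In the fit without KO male 1, neither passed when a KO female or a WT female was left out as well (adjusted p up to 0.104 and 0.106), and Cd163 did not pass without WT male 2 (adjusted p = 0.0637). With all 9 libraries, both calls were also lost with no filter on low values, without limma's mean-variance trend, with array quality weights (a weight per library from its fit to its group) and in an ordinary linear model, where the adjusted p was 0.0515 to 0.102 for Cd14 and 0.0532 to 0.0885 for Cd163.

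**Figure D2:**
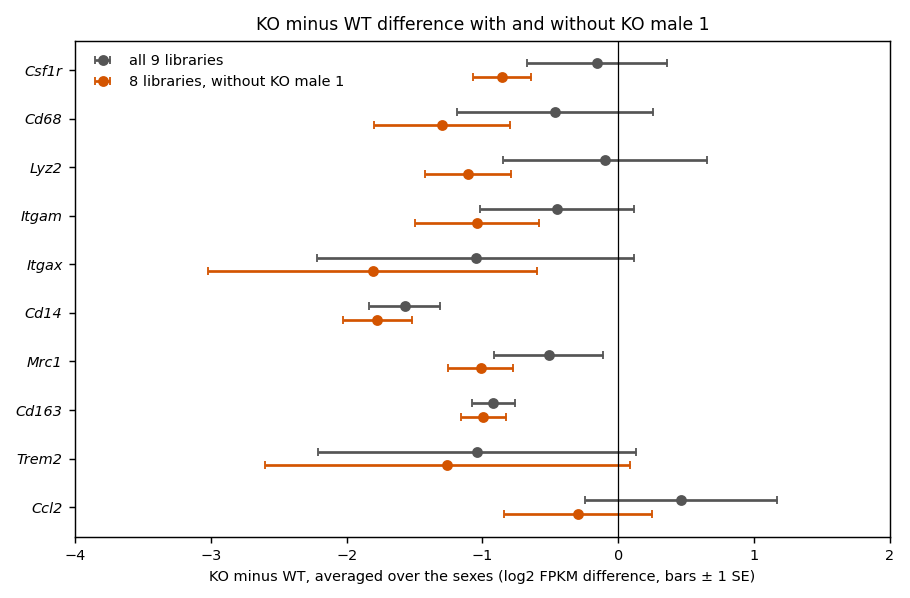
Difference between KO and WT (log2 FPKM, averaged over the sexes; points are limma estimates, bars are 1 SE) for the 10 genes, with all 9 libraries in grey and without KO male 1 in orange. Cd14 and Cd163 hardly move, from -1.57 to -1.77 and from -0.92 to -0.99, whereas Csf1r moves from -0.16 to -0.86 and Lyz2 from -0.094 to -1.11.

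Trem2 encodes a receptor for lipids that signals through the adaptor Tyrobp. Its level was 0.454 and 0.133 FPKM in the KO females, 0.890 FPKM in KO male 1 and 0.488 FPKM in KO male 2, 3.50, 0.0944 and 0.125 FPKM in the WT females, and 0.776 and 5.09 FPKM in the WT males. WT female 1 and WT male 2 were far above all other libraries, and WT females 2 and 3 were the lowest of the 9. The difference between genotypes was -1.04 ± 1.17 (log2, SE; limma adjusted p = 0.711), and -1.26 ± 1.35 (adjusted p = 0.586) without KO male 1. The lowest Trem2 value corresponds to about 2.17 estimated fragments.

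Ccl2 encodes the chemokine that draws monocytes from blood, and lies at positions 82035571 to 82037453 of chromosome 11. It was at 0.263 and 0.256 FPKM in the KO females, 2.63 FPKM in KO male 1 and 0.321 FPKM in KO male 2, 0.434, 0.342 and 0.241 FPKM in the WT females, and 0.168 and 0.868 FPKM in the WT males. KO male 1 stood alone, and the remaining KO libraries lay inside the WT range. Ccl2 had the only positive difference with 9 libraries, 0.46 ± 0.70 (log2, SE; limma adjusted p = 0.802), which was -0.30 ± 0.55 (adjusted p = 0.763) without KO male 1. Its receptor gene, Ccr2, was 0.385 to 0.527 FPKM in the KO libraries other than KO male 1 and 0.687 to 1.85 FPKM in WT. Ccr2 did not pass by limma with 9 libraries (-0.64, adjusted p = 0.586) or without KO male 1.

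In the WT libraries the medians ran from Lyz2 (43.1 FPKM) through Csf1r (5.25), Cd14 (4.75), Cd68 (3.84), Mrc1 (2.32), Cd163 (1.98), Itgam (0.959), Trem2 (0.776) and Itgax (0.371) to Ccl2 (0.342). The lowest WT value of Lyz2 was above the highest of any other member. Each of the other neighbours in that order overlapped over the 5 WT libraries. Cd68 was above Csf1r in KO male 1, and also in KO female 1, WT female 1 and WT male 2. The order differed further in KO male 1, where Mrc1, Ccl2 and Itgam, at 5.20, 2.63 and 2.51 FPKM, were all above Cd14 at 2.40 FPKM. Below Cd14 in that library came Itgax, Cd163 and Trem2.

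Genotype was also compared within each sex. Between KO and WT females, all 10 members had a lower mean in KO, from -0.34 for Ccl2 to -1.36 for Cd14 on the log2 scale. With the spread estimated from all 9 libraries, none passed in limma (0 of 10, beside 0.0204% of all genes), and Cd14 and Cd163 were the 2 with an unadjusted p under 0.05, beside 12.7% of all genes. With the spread estimated without KO male 1, again none passed (0 of 10, beside 0.129%), and 5 had an unadjusted p under 0.05, beside 17.6%. Calls in females appeared in other fits. Array quality weights with 9 libraries called Cd14 (adjusted p = 0.0468) and Cd163 (adjusted p = 0.0290), 2 of 10 beside 2.53% of all genes, and without KO male 1 they called Cd163 alone. When WT male 1 or WT male 2 was left out besides KO male 1, the differences in females stayed the same. They were -0.97 for Csf1r, -1.36 for Cd14 and -1.02 for Cd163. Only the estimated spread changed, and each male group then held 1 library.

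Between KO and WT males, 6 of 10 members were lower with 9 libraries, with a median of -0.051 over the members. None passed (0 of 10, beside 0.0136%), and Cd14 and Cd163 were again the 2 with an unadjusted p under 0.05, beside 16.6% of all genes, at -1.79 ± 0.39 and -0.82 ± 0.23 (log2, SE; adjusted p = 0.0926 and 0.132 by limma). Without KO male 1, when KO male 2 was the 1 KO male left, all 10 were lower with a median of -1.09, and none passed (0 of 10, beside 0.0613%). Cd14 (-2.19), Mrc1 (-1.08) and Cd163 (-0.97) then had an unadjusted p under 0.05, beside 17.8% of all genes. KO male 1 was 16.5-fold above the median of the other KO libraries in Lyz2 and 6.98-fold above it in Csf1r. When KO male 2 was left out instead, KO male 1 was the 1 KO male, and the male differences were 2.95 for Lyz2 and 2.06 for Csf1r. For Cd14 the male difference was lowest, at -2.25, when WT male 1 was left out.

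For the interaction, whether the difference between genotypes depends on sex, none of the members passed with 9 libraries (0 of 10 by limma, beside 0% of all genes, and 0 of 10 at an unadjusted p under 0.05, beside 7.01%) or without KO male 1 (0 of 10, beside 0.0136%, and 0 of 10 at an unadjusted p under 0.05, beside 6.98%). The median over the members moved from 0.88 to -0.059 when KO male 1 was left out. Averaged over genotypes, all 10 had a higher mean in males than in females with 9 libraries, with a median of 0.81, and none passed (0 of 10, beside 0.0136%). Itgax, at 2.76 ± 1.17 (log2, SE; adjusted p = 0.471 by limma), was the 1 member with an unadjusted p under 0.05, beside 10.4% of all genes. These differences were smaller without KO male 1: the median was 0.14, Csf1r moved from 0.63 to -0.069, Lyz2 from 1.02 to 0.0043 and Itgax to 2.00 ± 1.21, and none passed (0 of 10, beside 0.0477%, and 0 of 10 at an unadjusted p under 0.05, beside 11.5%). Without KO male 2, when KO male 1 was the 1 KO male left, the interaction was 4.07 for Lyz2 and 3.03 for Csf1r. The difference between the sexes was then 2.03 for Lyz2, 1.33 for Csf1r and 1.14 for Mrc1. The ordinary linear model of the methods was fitted here with KO and female as reference levels. Its sex term is therefore male minus female among the KO mice, not averaged over genotypes. With 9 libraries that term called 0 of 10, beside 2.79% of all genes, and the interaction 0 of 10, beside 1.66%.

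Over the 10 members the median difference was -0.49 with 9 libraries and -1.07 without KO male 1, on the log2 scale, beside -0.074 and -0.15 over all tested genes. Centring every library on its median moved the median of all genes without KO male 1 to 0.018 and that of the members to -0.91, and the lower means of all 10 members in KO kept their sign under that scaling and under quantile normalization. The split of all genes called moved more. With 9 libraries 210 were higher and 319 lower as deposited, against 130 and 92 after median centring. Without KO male 1 the split was 112 and 330, against 142 and 125.

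KO male 1 was not above the median of the other 8 libraries in all 10 genes. Relative to the median of the other 8 libraries it was 11.5-fold higher in Itgax, 10.6-fold in Lyz2, 9.01-fold in Ccl2, 6.15-fold in Cd68, 4.79-fold in Csf1r, 3.53-fold in Itgam, 2.55-fold in Mrc1 and 1.89-fold in Trem2, whereas Cd14 and Cd163 were at 0.587 and 0.753 of that median. Those 8 libraries include all 5 WT libraries. Among the KO libraries alone, KO male 1 was the highest in Cd14 and Cd163 too. It was at 1.71-fold and 1.32-fold the median of the other 3 KO libraries. The same library held more RNA of other leukocytes, of dividing cells and of skeletal muscle. All 13 lymphocyte genes found were highest in it, with a median of 115-fold, and so were 10 of 10 pan-leukocyte genes, which summed to 654 FPKM against 17.6 to 22.5 in the other KO and 25.8 to 61.7 in the WT libraries. Dendritic cell genes summed to 1490 FPKM, against 105 to 126.4 and 182 to 403, and 14 of 14 cell division genes were highest in KO male 1. Skeletal muscle genes summed to 10167 FPKM, against 2217 to 5178 in the other KO and 360 to 1915 in the WT libraries, so that muscle RNA was also higher in the KO libraries without it. Brown adipocyte genes summed to 4529 FPKM in KO male 1, against 4901 to 6004 and 4258 to 5466. Whether these other cells changed the values of the 10 genes was not tested.

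**Figure D3:**
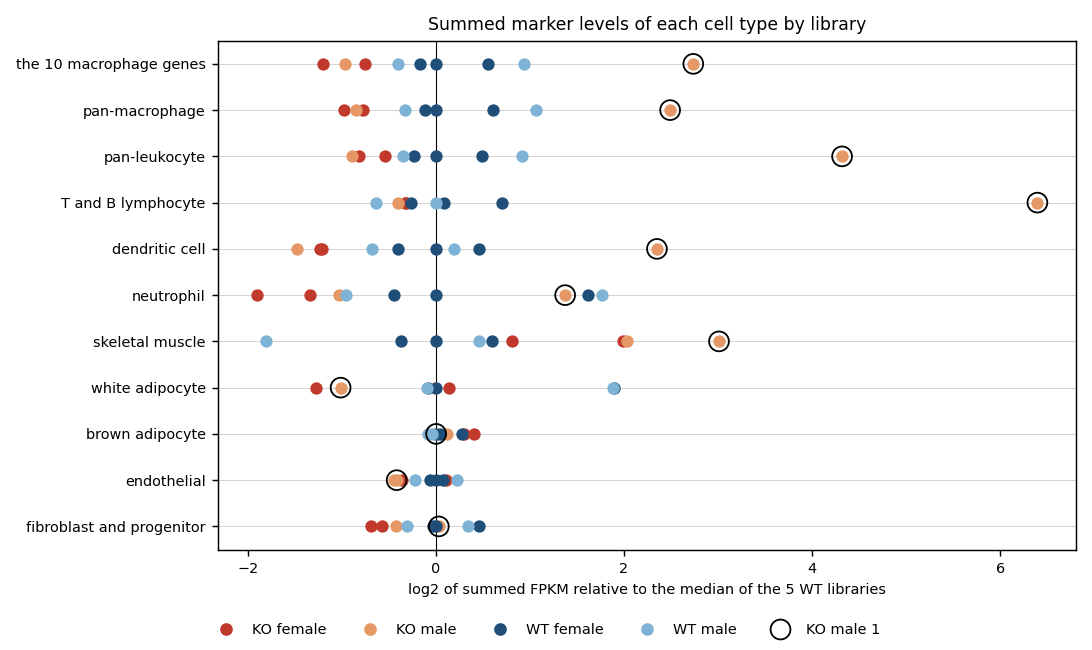
Summed FPKM of marker genes of each cell type per library, as log2 relative to the median of the 5 WT libraries; points are libraries and the open ring marks KO male 1. The ring lies furthest right for lymphocyte and pan-leukocyte genes. Among the other libraries the KO points of the 10 macrophage genes (26.8 to 36.6 FPKM) are left of all WT points (46.6 to 118 FPKM). The same holds for pan-macrophage, pan-leukocyte, dendritic cell, neutrophil and fibroblast genes. Lyz2 makes up most of the sum of the 10 macrophage genes, such as 43.1 of 61.6 FPKM in WT female 3.

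The members were also set against Csf1r within each library. Mrc1 varied 3.33-fold over the 8 libraries other than KO male 1, while its ratio to Csf1r stayed between -1.18 and -0.65 on the log2 scale of FPKM over Csf1r FPKM and was -1.82 in KO male 1. Cd163 was at -1.63 to -0.79 in the other 8 and at -3.71 in KO male 1, and Cd14 was at -1.05 to 0.57 and at -2.94. These 3 receptors were thus lower per unit of Csf1r in KO male 1 than in any other library. So were Itgam, at -2.87 against -2.74 to -1.65, and the macrophage gene Adgre1, at -2.88 against -2.42 to -1.45. Csf1r itself was highest in KO male 1. Cd68, Itgax, Trem2 and Ccl2 lay within the range of the other libraries. Lyz2 was higher, at 4.27 against 2.97 to 3.60. The pan-leukocyte gene Ptprc, which encodes CD45, was at 0.48 in KO male 1 and at -2.98 to -1.74 elsewhere, and Spi1 was at -0.26 against -1.75 to -0.64. For Cd163, the ratio to Csf1r overlapped between KO and WT with 9 and with 8 libraries, and so did that of Cd14.

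**Figure D4:**
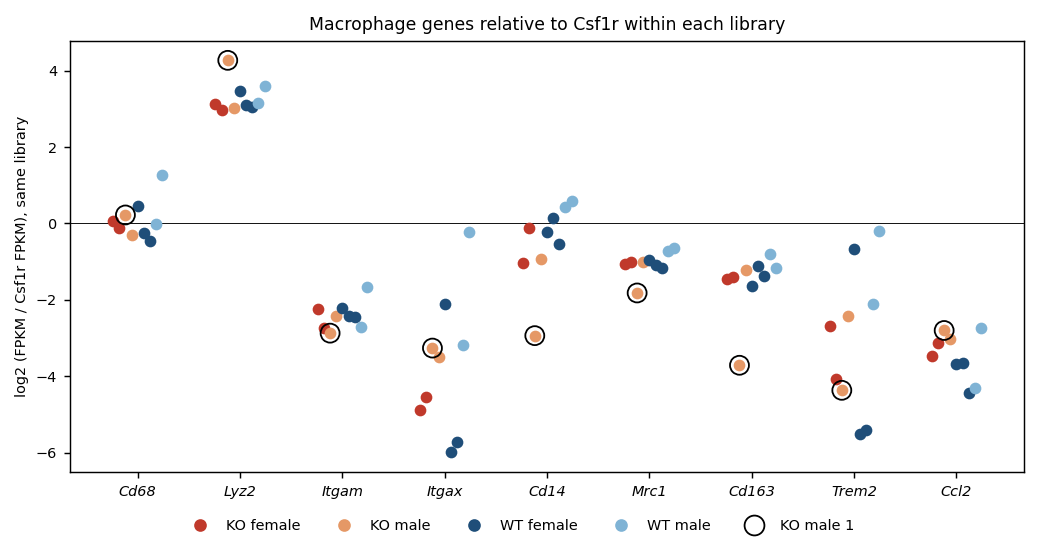
Ratio of each other member to Csf1r in the same library (log2 of FPKM over FPKM); points are libraries and the open ring marks KO male 1. Cd163 and Cd14 in KO male 1 lie at -3.71 and -2.94, under all other libraries, while Itgax and Trem2 spread over more than any other member.

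Itgax and Trem2 were high in the same 2 WT animals, WT female 1 and WT male 2. The genes whose profile was nearest to that of Trem2 over 9 libraries, by the root mean square difference of centred log2 FPKM, were Gpnmb (0.64), a lysosomal glycoprotein of lipid-loaded macrophages, Atp6v0d2 (0.71), a subunit of the lysosomal proton pump, and Spp1 (0.89), which encodes osteopontin. Gpnmb was 9.60 FPKM in WT female 1 and 27.2 FPKM in WT male 2, and 0.578 to 2.62 FPKM in the other 7 libraries. Mmp12, a macrophage elastase, was 2.85 and 8.78 FPKM in these animals and at most 0.940 FPKM elsewhere, and Lgals3, a galectin of phagocytes, was 17.3 and 25.3 FPKM and at most 11.6 FPKM elsewhere. White adipocyte genes were also highest in the same animals, with sums of 328 and 327 FPKM against 36.5 to 97.3 FPKM in the other 7. Among them, Retn (resistin) was 287 and 268 FPKM, against 31.4 to 85.2 FPKM elsewhere. Cd163, in contrast, ranged only 1.45-fold over the WT libraries. What the white adipocyte signal contributes to these values was not tested.

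**Figure D5:**
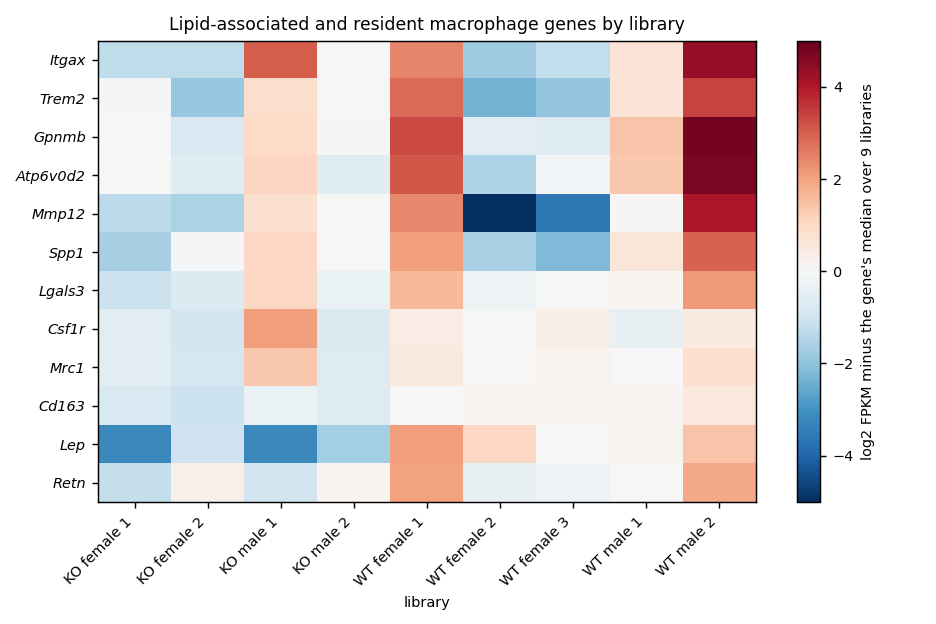
Level of 12 genes in each library, as log2 FPKM minus the median of the gene over the 9 libraries (red higher, blue lower). WT female 1 and WT male 2 are red from Itgax down to Lgals3 and again in Lep and Retn, whereas Csf1r is reddest in KO male 1 and Cd163 varies little.

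The nearest profiles of the other members, taken over the 8 libraries without KO male 1, differed in kind. The 3 genes nearest to Cd68 were genes of phagocytes, Itgb2 (0.15), Mpeg1 (0.16) and Cybb (0.20). The nearest to Lyz2 was the complement gene C1qa (0.095), and the Fc receptor genes Fcgr3 (0.057) and Fcgr2b (0.094) were nearest to Itgam and Mrc1. Second nearest to Lyz2, Itgam and Mrc1 were Sdf2l1 (0.12), Orai2 (0.18) and Scarb1 (0.11). Itgax had Gpnmb (0.42) as the nearest. Those nearest to Csf1r were Hal (0.075), Nid2 (0.087), a basement membrane gene, and Ecm1 (0.090), a gene of the extracellular matrix. Nearest to Cd163 were Tusc5 (0.13), an adipocyte gene, Lpar4 (0.13) and Map1b (0.13). Cd14 had Cdkn3 (0.26) and Ccl2 had Prdm10 (0.23) as the nearest. These distances share the same libraries and were not tested.

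The genes around the Csf1 receptor followed the same split between KO male 1 and the rest. The ligand Csf1 was 1.48 to 1.79 FPKM in the other 3 KO libraries, 2.06 to 3.91 FPKM in WT and 7.16 FPKM in KO male 1. The other ligand, Il34, behaved differently: it was 1.62, 1.75, 1.76 and 1.71 FPKM in the 4 KO libraries, KO male 1 included, and 2.80, 2.48, 2.07, 2.78 and 3.87 FPKM in WT. Il34 was lower in KO with 9 libraries (-0.73, limma adjusted p = 0.0456) and did not pass without KO male 1 (-0.74 ± 0.17, adjusted p = 0.0624). Spi1 was 0.774 to 0.950 FPKM in the other KO libraries, 1.35 to 3.72 FPKM in WT and 15.3 FPKM in KO male 1. The beta chain Itgb2 was 0.733 to 1.07, 1.10 to 6.26 and 19.0 FPKM in the same order, and Tyrobp was 2.33 to 3.09, 5.23 to 17.6 and 41.8 FPKM. By limma, Csf1, Spi1, Itgb2 and Tyrobp did not pass with 9 libraries (adjusted p = 0.848, 0.860, 0.946 and 0.732). They did not pass without KO male 1 either. In that set, KO values lay wholly below WT values for 13.5% of all genes. Adgre1, which encodes F4/80, overlapped between the genotypes, at 0.493 to 0.802 FPKM in the other KO libraries and 0.663 to 2.02 FPKM in WT.

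Wider lists of macrophage genes, written with earlier results of these data known, were counted in the same fits. The shares of all genes to set beside these counts are 20.2% at an unadjusted p under 0.05 and 2.17% called lower with 9 libraries, and 26.4% and 2.25% without KO male 1. Of 14 pan-macrophage genes, none was called by limma with 9 libraries (1 at an unadjusted p under 0.05) and all 14 had a lower mean in KO without KO male 1, where 11 had an unadjusted p under 0.05 and 1 was called, Mertk, a receptor for dying cells (-0.88 ± 0.16, adjusted p = 0.0447). Of 14 tested genes of resident and perivascular macrophages, none was called with 9 libraries (3 at an unadjusted p under 0.05) and 3 were called lower without KO male 1: Pf4 (-1.14), Cd209f (-1.23) and Retnla (-0.82). The lipid-associated list of 18 tested genes had 1 called lower with 9 libraries, the lipoprotein lipase Lpl (-0.48, adjusted p = 0.0347), which adipocytes also express, and none without KO male 1 (9 at an unadjusted p under 0.05, 7 of them lower). Of 12 inflammatory genes, 6 were tested. Tnf, Il1a, Il1b, Il6, Il12b and Saa3 were at 0 in some library and were not tested. Of the 6 tested, 2 were called lower without KO male 1, Casp1 (-2.27 ± 0.38) and Il18 (-1.69 ± 0.24). These encode the inflammasome protease and a cytokine it activates. Fcgr4, an activating Fc receptor, was the 1 of 11 tested integrin and phagocytic receptor genes called lower without KO male 1 (-2.36 ± 0.47). Csf2rb, the shared receptor chain for Csf2 and related cytokines, was the 1 of 9 in the Csf1 receptor list (-1.43 ± 0.24). No gene of the Toll-like receptor or chemokine lists was called in either fit by limma. Without KO male 1, 3 of 12 and 8 of 11 tested genes had an unadjusted p under 0.05, the first near the 26.4% of all genes. The chemokine list held 18 genes, and those at 0 in some library were not tested.

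Other cell types moved beside them. Without KO male 1, all 10 tested dendritic cell genes and all 6 tested mast cell genes had a lower mean in KO, with H2-Aa (-1.43) and Tpsb2 (-1.30) called, and 2 of 11 fibroblast and progenitor genes were called lower, Pdgfrb (-0.68) and Col1a2 (-1.10), beside 2.25% of all genes called lower. With 9 libraries 5 of those 11 were called lower, Col1a1, Col3a1 and Lum beside the same pair, beside 2.17% of all genes, while Lep (-3.21), the adipocyte hormone, was lower and the muscle genes Acta1 (2.29), Myh1 (1.98) and Mylpf (2.36) were higher, beside 1.43% of all genes called higher. Neutrophil genes summed to 2.58 to 4.70 FPKM in the other KO libraries, 24.9 FPKM in KO male 1 and 4.94 to 32.7 FPKM in WT, and the granule gene Mpo was listed at 0 in 6 of the 9 libraries. Marco, a scavenger receptor of macrophages in spleen, lymph node and lung, was 48.6 FPKM in KO male 1 and at most 0.116 FPKM elsewhere, and Timd4, a receptor for dying cells on resident macrophages, was 15.3 FPKM and at most 0.402 FPKM elsewhere.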

How the data were processed

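Total RNA of brown adipose tissue was poly A selected and sequenced by the authors as paired reads of 50 bases. Per the methods and the labels, reads were converted with bcl2fastq 1.8.4 and aligned to mm10 with TopHat 2.0.11 and Bowtie. The deposited values are FPKM per gene symbol and library, normalized by the authors to transcript length and library size; counts were not used here, and the strand setting is not given in the sources used here. Genes with an FPKM above 0 in all 9 libraries were kept, following the filter of the methods (14675 genes). The paper reports slightly more transcripts kept. It also reports fewer genes for its sex term than the linear model fitted here gave. Log2 FPKM without a pseudocount was fitted with limma 3.58.1 (R 4.3.3, empirical Bayes with a mean-variance trend) as a mean per genotype and sex. All p-values were Benjamini-Hochberg adjusted over all genes, with a threshold of 0.05. Differences are log2 FPKM, KO minus WT, and the fit without KO male 1 assumes that KO male 2 varies like the other groups. Exact permutation tests were two-sided, on log2(FPKM + 0.1). Scripts were tested on simulated data. The sum of FPKM per library was 380558 to 443569. Depth was estimated from the steps of low values and transcript lengths, and limits low genes most. Gene positions are from GENCODE M21 on GRCm38. Groups came from the genotype and sex labels, and replicates are separate animals numbered in accession order. The 10 genes and the wider lists were chosen with earlier results of these data known. The rule for named genes was the 10 members and their direct partners, every list gene called in either fit and otherwise at most 3 per list by unadjusted p, and the nearest profiles; the other list genes given (such as Marco, Timd4, Mmp12 and Mpo) were named after their values were seen. Alternatives were pseudocounts of 0.1 and 1, other filters, scalings, designs and variance models, and each library left out in turn; those of the fit without KO male 1 were added after seeing the data.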

Additional observations from a re-analysis of the deposited data

Results flagged for a closer look

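Among the 21 member and partner genes, each tested in the KO group of 4 and the WT group of 5 libraries (42 groups) with Dixon's criterion for a single far value, 11 groups held a library whose gap to its nearest neighbour exceeded the critical share of the range (0.829 for 4 libraries). Chance flags about 1 in 20 groups, and groups of the same libraries are not independent. All 11 were KO groups in which KO male 1 was the highest. Among the members these were Csf1r (gap over range 0.882), Cd68 (0.844), Lyz2 (0.878), Mrc1 (0.860) and Ccl2 (0.918). Among the partners they were the ligand Csf1 (0.880), Spi1 (0.936), Itgb2 (0.891), the Trem2 adaptor Tyrobp (0.904), Ccr2 (0.869) and Ptprc (0.990), which had the widest gap, with 25.6 FPKM in KO male 1 against 0.360 to 0.378 FPKM in the other KO libraries. Cd14, Cd163 and Il34 were not among them. The lymphocyte, dendritic cell, cell division and muscle sums of the same library are given beside the members above, and their part in these values was not tested.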

How the results depend on the processing

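No paired analysis was possible because the replicate numbers follow accession order and name different animals. With 9 libraries the number of genes called was 170 with no filter on low values, 222 with median centring, 34 with no mean-variance trend, 55 with array quality weights and 19 with an ordinary linear model, and 8 to 1105 with a library left out; the members called were 0 with no filter, no trend, array weights or the ordinary model, and 0 to 2 with a library left out. Cd14 and Cd163 each passed in 10 of 20 alternatives, and the other 8 members in none. Without KO male 1 the genes called were 262 and 171 with pseudocounts of 0.1 and 1, 57 with no filter, 267 with median centring, 249 with quantile normalization, 32 with no trend and 1 with the ordinary model, and 16 to 1880 with another library left out. The members called there were 1 with a pseudocount of 1 or quantile normalization, 4 with genotype as the only term or with no interaction term, 0 with no filter, no trend or the ordinary model, and 0 to 7 with another library left out, 7 being reached without WT male 1. Beside those 4 members, 544 of all 14675 genes were called with genotype as the only term and 642 with no interaction term. The upper end of the range of all genes called was also reached without WT male 1. Each male group then held 1 library, so the 7 members do not stand apart from that rise. KO male 2 could not be left out besides KO male 1, since no KO male would remain. The exact permutation test gave p under 0.05 for 2 members with 9 libraries and for 5 without KO male 1. It was not run on all genes, so no share stands beside these counts. In females the members called were 2 with array weights and 9 libraries, beside 2.53% of all genes. With 1 library left out of 9, the members called were 0 in females. In males, for the interaction and for sex, the members called were most without KO male 2, which also raised the number of all genes called. That fit holds 1 KO male, so its counts are not given. The fit without KO male 1 also holds 1 KO male, and its counts are given because leaving that library out was planned. Without KO male 2 the male differences were positive for Lyz2 (2.95) and Csf1r (2.06). The linear model of the methods moved likewise without KO male 2 for its sex and interaction terms. Its genotype term passed for at most 1 member.

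Leaving out 1 library turned the sign of these uncalled differences. Averaged over the sexes with 9 libraries, the range was -0.86 to 0.54 for Csf1r, -1.30 to 0.37 for Cd68, -1.11 to 0.92 for Lyz2, -1.04 to 0.14 for Itgam and -0.30 to 1.22 for Ccl2, and for Ccl2 without KO male 1 it was -0.89 to 0.29. In females it was -1.88 to 0.24 for Itgax and -1.43 to 1.18 for Trem2. In males it was -0.75 to 2.06 for Csf1r, -1.68 to 1.65 for Cd68, -1.09 to 2.95 for Lyz2, -0.98 to 1.37 for Itgam, -2.89 to 0.85 for Itgax, -1.08 to 0.92 for Mrc1 and -0.25 to 2.78 for Ccl2. For the interaction it was -0.77 to 2.56 for Cd68, -1.81 to 1.93 for Itgax, -0.89 to 0.037 for Cd14, -0.14 to 1.86 for Mrc1, -0.011 to 0.40 for Cd163 and -2.77 to 0.26 for Trem2, and for sex it was -0.069 to 1.33 for Csf1r. Among other settings, Cd68 in males was 0.053 with a pseudocount of 1 and 0.068 with quantile normalization, the Itgax interaction was -0.047 and -0.25 with pseudocounts of 0.1 and 1, -0.040 with median centring and -0.28 with quantile normalization, and the Cd163 interaction was -0.075 with quantile normalization. The causes were not tested. Groups of 2 or 3 animals and few fragments for Trem2, Itgax and Ccl2 limit what could be detected.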
